A study of Rattus norvegicus with 6 samples.

Results

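Prostate and seminal plasma secretory proteins were followed through 8 transcripts in rat prostate: Tgm4, Semg1, Pate4, Msmb, Scgb2a1, Sbp, Pbsn and Azgp1. They were found by symbol among the 32883 genes of the deposited expression table, each with 1 row. The 6 libraries came from prostate tissue of rats (Rattus norvegicus). For the 3 hormone libraries, rats had carried 4 pellets under the skin for 4 weeks, and a single pellet held 2.5 mg of estradiol beside 25 mg of testosterone, which is a way to bring on benign prostatic hyperplasia. For the 3 control libraries, rats had a skin incision and staples and no pellets. Strain, age, prostate lobe and the number of animals are not given in the labels, and a condition label names BPH for all 6 samples, controls included. Whether the tissues came from separate animals is not labelled, and the p-values therefore reflect only how far these samples spread, which may be technical.

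The rodent prostate secretes a fluid that mixes at ejaculation with that of the seminal vesicles and sets into a copulatory plug. Transglutaminase 4, an enzyme made by the prostate and coagulating gland, crosslinks seminal vesicle proteins such as semenogelin 1 into that plug. In rats, production of many of these proteins depends on androgens, and the lobes differ. Prostatein, of which Scgb2a1 encodes the C3 chain, and the spermine-binding protein Sbp are known from the ventral lobe, and probasin (Pbsn) from the dorsal and lateral lobes. Levels are given below in 3 ways. CPM is the count scaled to a common library size with TMM factors, FPKM is a level per gene length that allows genes to be compared, and the share is the percent of all counts of a library.

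Total counts ranged from 12931982 to 15949500 per library. The tissue label was checked with marker lists. Of 18 luminal epithelium markers 17 were abundant enough to test. Of these 17, Krt8, a keratin of luminal cells, was the 1 called, with 263 ± 22.8 CPM and 508 ± 49.6 CPM in the control and hormone groups (SD, n = 3 each; edgeR adjusted p = 0.0164). It did not pass when control 2 or any 1 hormone library was dropped (edgeR adjusted p up to 0.0821). In the luminal list 12 of 17 had a positive log2 fold change (median 0.24), and 16 were not called. Markers of epididymis and vas deferens summed to 0.728 to 1.92 CPM per library, and those of bladder urothelium to 41.3 to 61.7 CPM. Summed smooth muscle markers ranged from 4268 to 8887 CPM in controls and from 4026 to 5926 CPM in hormone libraries. Of these 8 markers 0 were called and 0 had a positive log2 fold change (median -0.37). Summed leukocyte markers were 365, 569.9 and 387 CPM in controls 1, 2 and 3 and 1132, 604 and 650.1 CPM in hormone libraries 1, 2 and 3. The leukocyte sums did not overlap between groups, though 0 of 10 markers tested passed (edgeR). Of all single genes tested, 16.1% were higher in hormone libraries without overlap. Among the 10 leukocyte markers 9 had a positive log2 fold change, and the other, Cpa3, had -1.81 (edgeR adjusted p = 0.0680). Their levels were unequal, with 311 mean FPKM for Lyz2 and 23.3 for Cd4, the next highest. Of the basal, fibroblast, skeletal muscle and adipocyte lists 0 markers were called. Log2 fold changes were positive for 4 of 7 basal, 2 of 7 fibroblast, 2 of 4 skeletal muscle and 0 of 4 adipocyte markers tested. The adipocyte median was -1.86. Of 6 endothelial markers tested 1 rose, Kdr, a VEGF receptor (13.5 ± 3.78 to 28.2 ± 2.89 CPM, edgeR adjusted p = 0.0444). In this list 5 of 6 had a positive log2 fold change, and Cldn5 had -0.68. Over all genes tested 3.27% were called, 2.39% higher, so lists this small can be expected to hold few calls or none. In bulk tissue, fewer cells of a type and less RNA per cell cannot be told apart.

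The sequences upstream of the 4 members with the highest FPKM are shown because testosterone and estradiol act through receptors that bind DNA near their target genes. They are the 250 bases before the annotated start in RefSeq's promoter table, build GRCr8, read on the gene's own strand from 5′ to 3′. Capitals mark TATAAA, the core promoter box, searched on the gene's strand, and AGAACA or its reverse complement TGTTCT, the hexamer that androgen response elements repeat, searched on both strands.
Tgm4, chr8:131566637-131566886, + strand: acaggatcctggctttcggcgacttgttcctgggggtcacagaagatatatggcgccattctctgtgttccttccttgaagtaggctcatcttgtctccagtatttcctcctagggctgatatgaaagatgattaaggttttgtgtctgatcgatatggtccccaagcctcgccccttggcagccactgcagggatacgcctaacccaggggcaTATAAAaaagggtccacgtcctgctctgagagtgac
Semg1, chr3:173332262-173332511, - strand: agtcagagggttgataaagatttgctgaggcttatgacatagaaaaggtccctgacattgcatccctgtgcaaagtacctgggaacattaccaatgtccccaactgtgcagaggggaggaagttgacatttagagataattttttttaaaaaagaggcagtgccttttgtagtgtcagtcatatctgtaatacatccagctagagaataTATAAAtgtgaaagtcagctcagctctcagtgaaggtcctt
Msmb, chr16:7372569-7372818, + strand: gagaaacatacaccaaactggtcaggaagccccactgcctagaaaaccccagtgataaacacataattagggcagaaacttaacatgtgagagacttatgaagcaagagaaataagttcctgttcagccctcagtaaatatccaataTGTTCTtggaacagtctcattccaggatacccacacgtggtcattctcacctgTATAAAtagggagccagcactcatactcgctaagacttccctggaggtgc
Scgb2a1, chr1:215922501-215922750, + strand: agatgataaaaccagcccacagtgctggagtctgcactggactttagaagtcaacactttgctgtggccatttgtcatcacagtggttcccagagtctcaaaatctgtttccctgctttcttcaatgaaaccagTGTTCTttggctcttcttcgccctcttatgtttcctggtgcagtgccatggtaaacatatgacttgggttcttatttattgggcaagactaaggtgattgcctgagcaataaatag
The hexamer began 103 bases before the start in Msmb and 116 bases before it in Scgb2a1, and it was not in the windows of Tgm4 and Semg1. TATAAA began 36, 41 and 50 bases before the start in Tgm4, Semg1 and Msmb. The 2 motifs did not overlap in these windows. Of all 33469 windows of this length in the table, 17.5% held the hexamer and 8.06% held TATAAA. The palindromic androgen response element, an inverted repeat of the hexamer, was in 0.0120% of windows and the palindromic estrogen response element in 0.0239%, both searched on both strands. Neither was in a window of any member. Exact palindromes this rare could be expected in no member window, so their absence does not show that response elements are lacking. Of the 8 members 7 had an entry, Sbp with 3 windows that held neither TATAAA nor the hexamer, and Pate4 had none. Among the members not shown, Pbsn held the hexamer 232 bases before its start and TATAAA 27 bases before it, and Azgp1 held neither. A match is a description of letters and not a measured site.

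Tgm4, the plug-forming transglutaminase, was the transcript with the highest FPKM in all 6 libraries and showed no difference larger than the spread between libraries. It had 22027, 35902 and 37263 FPKM in controls 1, 2 and 3 and 24077, 29382 and 31716 FPKM in hormone libraries 1, 2 and 3. The groups overlapped, with the lowest library of each being replicate 1. Tgm4 took 7.05%, 11.5% and 11.9% of counts in the controls and 7.70%, 9.40% and 10.1% in the hormone libraries (exact permutation p = 0.600, two-sided, adjusted p = 0.840 over 7 members). Its log2 fold change was -0.04 ± 0.35 (SE), hormone minus control, with a 95% interval from -0.86 to 0.78 (edgeR quasi-likelihood test, adjusted p = 0.956). Mitochondrial transcripts took 7.72% of counts in control 1, the control with least Tgm4, and 3.37% to 4.94% in the other libraries. Control 1 also had the highest smooth muscle sum, and the part of either in its Tgm4 share was not tested. By count, Tgm4 ranked first in each control and second in each hormone library, behind Fcgbpl1, which is named here only because it took that place. The Tgm4 gene (ENSRNOG00000004320) lies on chromosome 8 at 132120452 to 132157485 in the coordinates of the deposited table, for which the sources used here give no genome build.

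**Figure D1:**
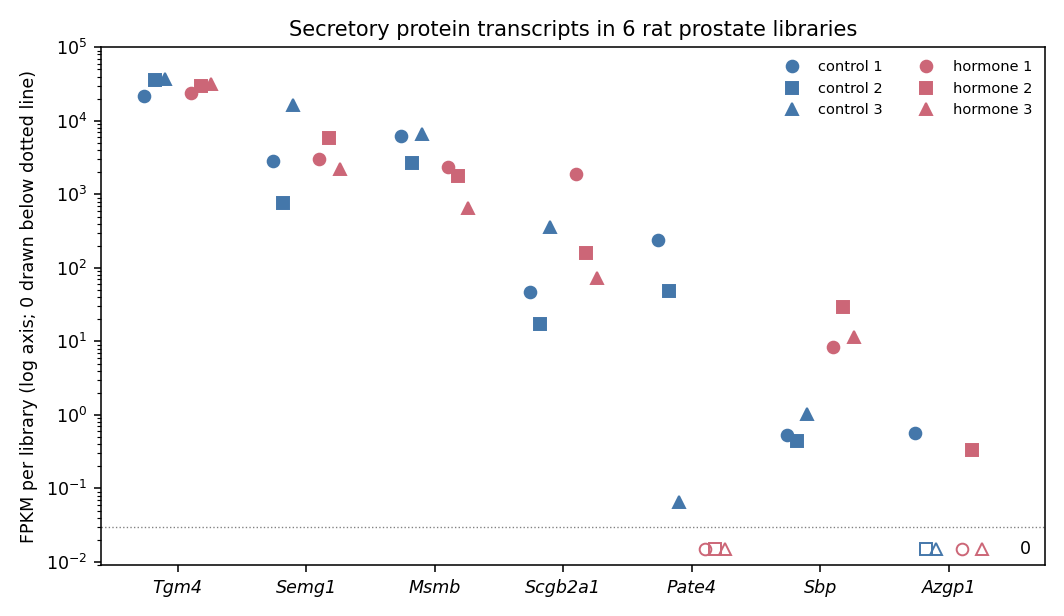
FPKM (log axis) of 7 secretory transcripts in each of 3 control and 3 hormone libraries, 1 symbol per library, with open symbols below the dotted line for a value of 0. Tgm4 stays between 22027 and 37263 FPKM, Sbp is higher in every hormone library, and Pate4 has counts in controls only.

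Semg1, the semenogelin that is clotted by transglutaminase, was second in mean FPKM among the members and its lowest and highest libraries were both controls. Its FPKM was 2846, 762 and 16257 in controls 1, 2 and 3 and 3032, 5900.3 and 2208 in hormone libraries 1, 2 and 3. All 3 hormone values lay inside the control range, and control 3, where Semg1 took 2.39% of counts, stood above the rest. The share was 0.972% ± 1.23 in controls and 0.545% ± 0.285 in hormone libraries (SD, n = 3 per group; exact permutation p = 0.900, adjusted p = 1). The edgeR log2 fold change was -0.75 ± 0.97, with a 95% interval from -3.02 to 1.52 (adjusted p = 0.674), and turned to 1.20 without control 3 (adjusted p = 0.285). Its SD of log2 CPM within groups was 1.66, more than that of 99.6% of the 14003 genes tested.

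The neighbours of Semg1 on chromosome 3 belong to the cluster of seminal vesicle secretory and whey acidic protein genes. Svs4, Svs5 and Svs6, which encode major seminal vesicle proteins in rats and lie within 150 kb, were listed at 0 counts in all 6 libraries. The broadly expressed transcription factor gene Mtf1 was also at 0 in all 6, so a gene listed at 0 here may still have been transcribed. Wfdc5, a whey acidic protein family gene in the same cluster, had 71, 0 and 204 counts in controls 1, 2 and 3 and 3, 4 and 0 counts in hormone libraries 1, 2 and 3. Its 2 highest values were in the 2 controls with the most Semg1. Hormone libraries 1 and 2 had more Semg1 than control 1 but only 3 and 4 Wfdc5 counts against 71. Wfdc5 had too few counts to be tested. In all, 11 of the 17 genes within 150 kb of Semg1 (ENSRNOG00000013776; chromosome 3, 160627610 to 160630457) had no count in any library. Of the list of seminal vesicle and coagulating gland secretion, 13 of 23 symbols were in the table and 3 were tested, with 0 called. The others tested were Clu, encoding the chaperone clusterin, with 838 ± 414 and 489.6 ± 317 CPM (adjusted p = 0.402), and the protease inhibitor gene Spink8, with 5.75 ± 1.23 and 7.56 ± 2.82 CPM (adjusted p = 0.469).

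Pate4, a small secreted protein of the Ly6 family known in rodents as seminal vesicle secretory protein 7, had counts in controls only. Controls 1, 2 and 3 had 3066, 763 and 1 counts, and each hormone library had 0. Control 3, with the most Semg1, had almost no Pate4, and control 1, with the most Pate4, had less Semg1 than control 3. Set against 3 counts over the hormone group, the summed control counts, each side taken over its summed library totals, give a level at least 1268-fold lower in hormone libraries, a bound that covers counting error only and rests on controls 1 and 2. The 1 count in control 3 equals 0.0641 CPM and lies below the 0.193 to 0.234 CPM that 3 counts make in a hormone library, which is what a count of 0 still allows. Pate4 was not abundant in enough libraries to be tested. With no filter on low counts it did not pass (edgeR adjusted p = 0.316), nor without control 3 (adjusted p = 0.0602), and the exact permutation p of its share was 0.1, the smallest that 3 against 3 can give. Its neighbours Pate1 and Pate3 had 0 counts in all libraries, and Pate2 had 2 counts in control 1 and 0 elsewhere. Pate4 (ENSRNOG00000039447) lies on chromosome 8 at 36815007 to 36817747.

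Msmb, beta-microseminoprotein, one of the main proteins of prostatic fluid, was lower in every hormone library than in any control. Its FPKM was 6287, 2697 and 6604 in controls 1, 2 and 3 and 2330.2, 1758 and 652 in hormone libraries 1, 2 and 3. The groups did not overlap, with the hormone side lower for Msmb as for 15.3% of all genes tested (31.3% in either direction), and control 2 lay closest to the hormone libraries. The share of counts was 0.283% ± 0.118 in controls and 0.0860% ± 0.0464 in hormone libraries (SD, n = 3 per group; exact permutation p = 0.1, adjusted p = 0.233). The edgeR log2 fold change was -1.61 ± 0.50, a 3.04-fold lower level with a 95% interval from -2.78 to -0.43, and did not pass (adjusted p = 0.128). It was lower than that of all but 122 of the 14003 genes tested. DESeq2 called 1 member lower, Msmb (adjusted p = 0.00750), and 1 higher, Sbp. Over all genes tested it called 4.41% lower and 6.47% higher, 10.9% in all. The other alternative fits run left Msmb uncalled, with a log2 fold change of -1.98 to -1.23 when 1 library was left out. By FPKM, Msmb ranked 7th, 9th and 4th among all genes in the controls and 14th, 20th and 64th in the hormone libraries.

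The gene next to Msmb moved the same way with far less spread. Ncoa4, a nuclear receptor coactivator that also carries ferritin to lysosomes, fell from 843 ± 43.2 to 429.6 ± 35.8 CPM (log2 fold change -0.97 ± 0.13, edgeR adjusted p = 0.0148). It was 1 of 6 genes tested within 150 kb of Msmb and was named after its values were seen. Ncoa4 was not called without control 2 or without any 1 hormone library (adjusted p up to 0.0737). The FPKM ratio of Msmb to Ncoa4 ranged from 5.37 to 25.4. The spans of Msmb (ENSRNOG00000039786; chromosome 16, 8280275 to 8300852) and of every other member overlapped no other gene of the table.

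**Figure D2:**
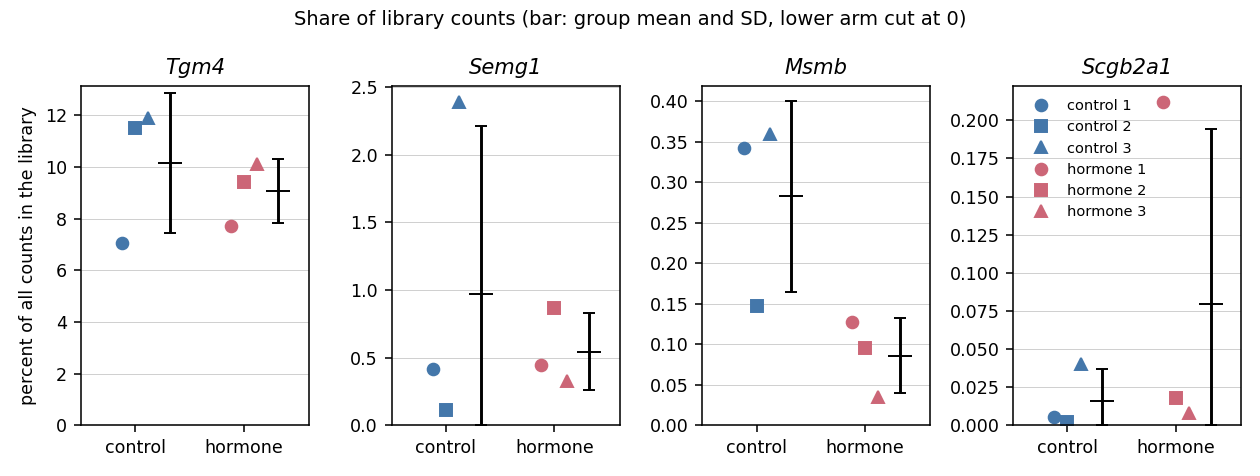
Percent of all library counts taken by Tgm4, Semg1, Msmb and Scgb2a1 in each library, with group mean and SD (n = 3 per group) at the right of each group. Axes start at 0 and differ in scale. Msmb is the 1 of the 4 whose groups do not overlap, while in CPM 31.3% of all genes tested had groups without overlap. Control 3 stands above the other libraries in Semg1, as hormone 1 does in Scgb2a1.

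Sbp, the spermine-binding protein of the rat ventral prostate, was the 1 member that passed the test. It had 20, 20 and 46 counts in controls 1, 2 and 3 and 389, 1213 and 449 counts in hormone libraries 1, 2 and 3. Every hormone library lay above every control, and hormone 2 was the highest. Mean Sbp was 1.86 ± 0.947 CPM without hormones and 49.4 ± 33.9 CPM with them (SD, n = 3 per group). It rose 26.4-fold, a log2 fold change of 4.72 ± 0.59 with a 95% interval from 3.34 to 6.10 (edgeR adjusted p = 0.0119), and 20 of the 14003 genes tested had a higher log2 fold change. Of the 5 members tested 1 was called, while 3.27% of all genes tested were called, 2.39% higher and 0.886% lower. The other tested member whose groups did not overlap was Msmb, and the hormone side was higher without overlap in 16.1% of all genes tested. The call was lost without control 2 (log2 fold change 4.48, adjusted p = 0.0636), and the adjusted p was 0.0231 to 0.0459 without any other single library. The size depended on the constant added in limma on log2 FPKM, with 4.29, 3.21 and 1.80 for constants of 0.1, 1 and 5 (adjusted p = 0.0120, 0.0194 and 0.0490). Its share of counts remained small, at 0.00474% ± 0.00329 in hormone libraries (exact permutation p = 0.1, adjusted p = 0.233), and 16.5 ± 11.5 FPKM there was far under the Tgm4 level. The leukocyte sums given above were also higher in every hormone library, highest in hormone 1 and not in hormone 2, and their part in the Sbp difference was not tested. The lobe sampled is not labelled for any library, and its part in the Sbp difference was not tested either.

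Zg16b, a zymogen granule protein gene that lies beside Sbp, rose as well. It had 70, 117 and 113 counts in the controls and 274, 486 and 411 counts in the hormone libraries, again highest in hormone 2. The level rose from 6.44 ± 1.26 to 28.3 ± 9.41 CPM (log2 fold change 2.13 ± 0.30, edgeR adjusted p = 0.0148). With limma its log2 fold change was 0.94 for a constant of 5 (adjusted p = 0.0420). Dropping control 2, hormone 2 or hormone 3 ended its call (edgeR adjusted p up to 0.0693). The deposited table places Sbp (ENSRNOG00000058058) at 13289508 to 13309332 and Zg16b at 13311789 to 13324536 of chromosome 10. RefSeq's gene table for GRCr8 also holds both genes, but gives Zg16b as a synonym of Sbp and Sbpl as a synonym of Zg16b. How reads that map to both were counted is not known from the labels or files, so the separate levels of the pair are uncertain. The FPKM ratio of Sbp to Zg16b was 0.296, 0.177 and 0.422 in the controls and 1.47, 2.59 and 1.13 in the hormone libraries. Prss32, a serine protease gene in the same window, had 1.80 ± 2.40 and 9.08 ± 4.50 CPM and did not pass (adjusted p = 0.196), and its groups overlapped. Prss27, another serine protease gene there, had 1.88 ± 0.769 and 0.456 ± 0.0822 CPM, in the other direction and without overlap, and did not pass either (edgeR adjusted p = 0.0560). Of the 9 genes tested within 150 kb of Sbp, Zg16b was the 1 called.

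Scgb2a1, the secretoglobin that forms the C3 chain of prostatein, varied widely within both groups. It had 47.4, 17.1 and 359.7 FPKM in controls 1, 2 and 3 and 1892, 157 and 73.9 FPKM in hormone libraries 1, 2 and 3. Hormone 1 was far above all others, control 3 came second, and the groups overlapped. The highest level was 118 times the lowest in CPM, and the SD of log2 CPM within groups, 2.34, exceeded that of 99.9% of genes tested. The log2 fold change of 2.39 ± 1.51, with a 95% interval from -1.19 to 5.96, did not pass (edgeR adjusted p = 0.382). It turned to -0.21 without hormone 1 and was 4.60 without control 3 (adjusted p = 0.942 and 0.187). Hormone 1 also had the highest leukocyte sum, while control 3, second in Scgb2a1, had a leukocyte sum of 387 CPM, and the part of such cells in Scgb2a1 was not tested.

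Scgb2a2, a related secretoglobin at 225825356 to 225830355 of chromosome 1, tracked Scgb2a1 (ENSRNOG00000023151; 225899313 to 225902676) through this range. Scgb2a2 had 20.6, 6.85 and 153 FPKM in the controls and 814, 73.8 and 28.1 FPKM in the hormone libraries. The FPKM ratio of Scgb2a1 to Scgb2a2 stayed between 2.13 and 2.63 in all 6 libraries. Pearson's r of log2 CPM was 0.999 over the 6 libraries, which fall into the 2 groups compared, and is given as a description. The genes are close relatives, RefSeq's table for GRCr8 lists Scgb2a2 as a synonym of Scgb2a1, and the same uncertainty about shared reads applies to their separate levels. Scgb1d2, of the secretoglobin branch that pairs with these chains, was listed at 0 counts in every library.

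**Figure D3:**
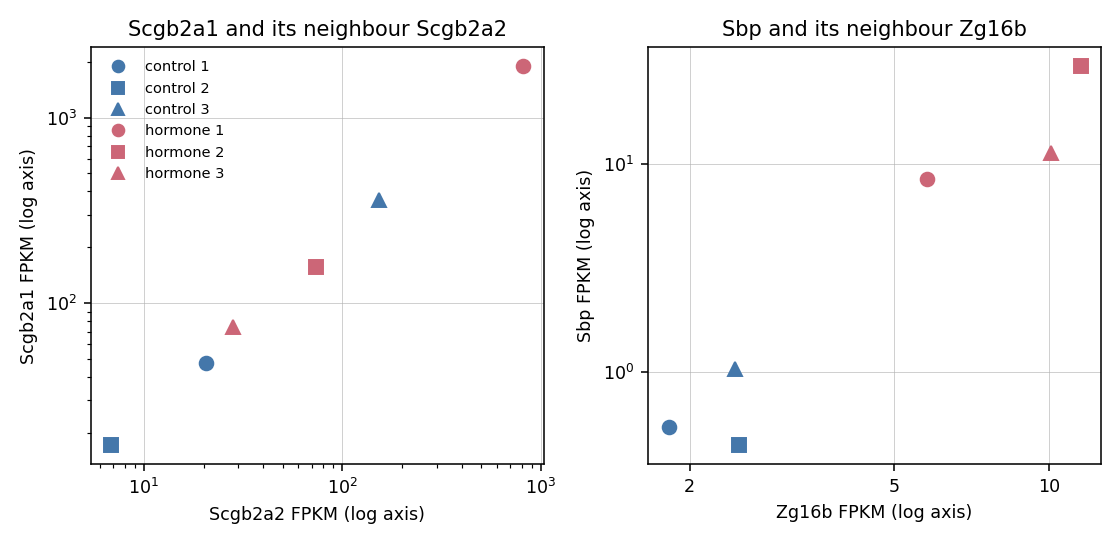
FPKM of Scgb2a1 against Scgb2a2 (left) and of Sbp against Zg16b (right), log axes, 1 symbol per library. The secretoglobins lie along 1 line that mixes the groups, with control 2 lowest and hormone 1 highest, whereas for Sbp and Zg16b all 3 hormone libraries lie above all 3 controls on both axes.

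Pbsn, probasin, a lipocalin whose promoter is widely used to drive transgenes in mouse prostate, was listed at 0 counts in every library. For counting error alone that allows 3 counts, or 0.182 to 0.234 CPM by library, and it does not show that the transcript was absent. Its row (ENSRNOG00000003713) spans 45244038 to 45259492 of chromosome X, and the gene beside it, the odorant-binding lipocalin Obp1f, was listed at 0 as well. Azgp1, zinc-alpha2-glycoprotein, a secreted relative of MHC class I heavy chains that is abundant in human prostatic fluid, had 9 counts in control 1, 6 in hormone 2 and 0 in the other libraries. Neither was tested. Azgp1 (ENSRNOG00000001333) lies on chromosome 12 at 19196611 to 19202647.

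Ordered by mean FPKM, the members were Tgm4, Semg1, Msmb, Scgb2a1, Pate4, Sbp, Azgp1 and Pbsn in controls. In hormone libraries Sbp and then Azgp1 followed Scgb2a1, with Pate4 and Pbsn at 0. Tgm4 was above every other member in each library. Semg1 and Msmb overlapped in range within both groups, and so did Msmb and Scgb2a1 in hormone libraries. In controls the ranges of Scgb2a1 and Pate4, of Pate4 and Sbp, and of Sbp and Azgp1 overlapped. Together the 8 members took 7.84%, 11.8% and 14.7% of counts in controls 1, 2 and 3 and 8.49%, 10.4% and 10.5% in hormone libraries 1, 2 and 3. Tgm4 made up between 81.1% and 97.7% of these counts. Without Tgm4 the members took 0.789%, 0.265% and 2.79% of control counts and 0.786%, 0.988% and 0.371% of hormone counts, and control 3 was highest through Semg1.

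**Figure D4:**
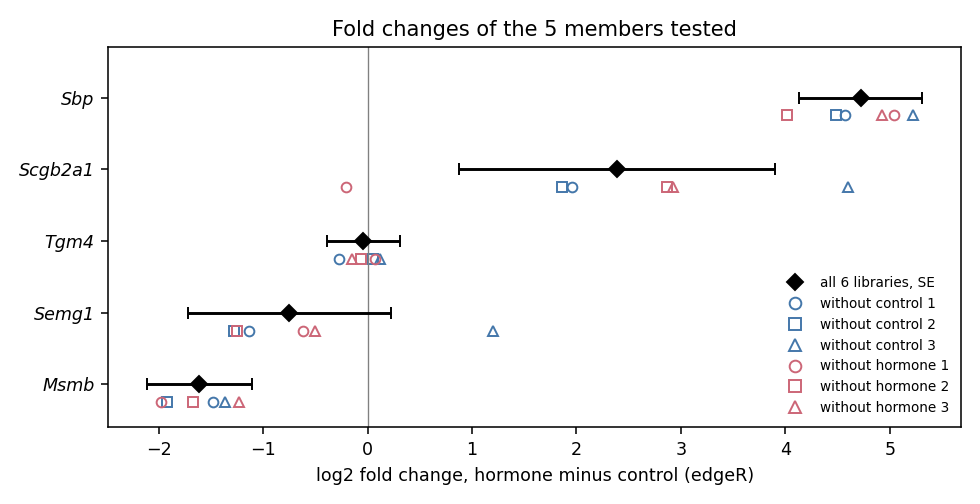
Log2 fold change, hormone minus control, of the 5 members tested with edgeR (black, with SE) and, below each, the value with 1 library left out. Sbp stays between 4.01 and 5.22 and Msmb between -1.98 and -1.23, whereas Scgb2a1 and Semg1 cross 0 when 1 library is left out and Tgm4 stays between -0.27 and 0.12.

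The 5 tested members had a median log2 fold change of -0.04, with 2 positive, and all 14003 genes tested had 49.9% positive. Among the 10 pairs of these 5, Pearson's r of log2 CPM over the 6 libraries ranged from -0.694 for Msmb and Sbp to 0.589 for Scgb2a1 and Semg1, so no pair came near the 0.999 of Scgb2a1 with its neighbour. The genes whose pattern was most like each member were named by the highest r among 9259 genes with a mean of at least 10 CPM. They were Arl1, Smu1 and Exosc10 for Tgm4 (r = 0.994 to 0.995), Psma1, Rpia and AABR07029742.1 for Msmb (r = 0.989 to 0.993), and Topors, LOC102556347 and Wipi1 for Sbp (r = 0.991 to 0.996). For Semg1 they were Mcat, Tab1 and Itfg2 (r = 0.939 to 0.970), and after Scgb2a2 those for Scgb2a1 were LOC100912564 and Als2cl (r = 0.977 and 0.972). With 6 libraries and so many genes compared, such values of r describe these libraries only.

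Other prostate secretory genes gave calls in both directions. Of 63 listed symbols 51 were in the table, and of the 25 rows tested 2 rose, 2 fell and 21 did not pass, with a median log2 fold change of -0.03. The share called was 16%, against 3.27% of all genes tested, a description only, since the list was chosen with earlier results of these data known. Wfdc18, a secreted whey acidic protein family member, had 381, 168 and 143 CPM in controls 1, 2 and 3 and 14.3, 9.07 and 2.50 CPM in hormone libraries 1, 2 and 3. It fell by 4.73 on the log2 scale (SE 0.66, edgeR adjusted p = 0.0148), more than any member tested, and the call did not hold without control 2 or hormone 2 (edgeR adjusted p up to 0.0724). Prdx6, a peroxiredoxin that reduces phospholipid peroxides, fell from 750.2 ± 89.5 to 313 ± 99.6 CPM (edgeR adjusted p = 0.0461). It passed in 0 of the 6 fits that left out 1 library (edgeR adjusted p from 0.0711 to 0.127). Nor did it pass among genes with a group mean FPKM of at least 5 in at least 1 group (edgeR adjusted p = 0.0551). Fuca1, the lysosomal fucosidase, had 116 ± 7.49 CPM in controls and rose to 177 ± 11.0 CPM (edgeR adjusted p = 0.0316), which did not hold without control 2 or any 1 hormone library, nor with limma. Zg16b, described above, was the other gene that rose. The 3 most abundant of this list by FPKM did not pass, namely the sperm surface glycoprotein gene Cd52 (1013 ± 187 and 863 ± 244 CPM, adjusted p = 0.592), the protease inhibitor gene Cst3 (510.4 ± 115 and 541 ± 59.9 CPM, adjusted p = 0.825) and Cd24 (1175 ± 133 and 1000.2 ± 83.5 CPM, adjusted p = 0.408).

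Relatives of the members by protein family gave no call. Of 44 listed symbols 43 were in the table, and 15 rows had no count in any library. Of the 11 tested 0 passed, against 3.27% of all genes tested, so few calls or none could be expected. That list holds the members of these families too, and Tgm4, Msmb and Scgb2a1 had its highest mean FPKM. Tgm1, Tgm2 and Lcn2 are given outside the naming rule, chosen after their values were seen. Tgm1, the transglutaminase of cornifying epithelium, had a log2 fold change of 2.52 (edgeR adjusted p = 0.0541), and Tgm2, the tissue transglutaminase, had 0.01 (adjusted p = 0.983). Lcn2, a lipocalin that binds iron carriers of bacteria, had 1.12 (adjusted p = 0.304). Among 13 androgen-responsive regulators all 13 were tested, 2 rose and 0 fell, namely Eaf2 and Mboat2. That is 15.4% of the list, against 2.39% of all genes tested called higher. This list was chosen with earlier results of these data known, so the 2 shares are a description only. Eaf2, a transcription elongation factor partner, went from 19.0 ± 2.79 to 72.4 ± 4.97 CPM (edgeR adjusted p = 0.00268). Mboat2, an acyltransferase gene, had 6.72 ± 3.10 and 68.4 ± 9.65 CPM (edgeR adjusted p = 0.00614). Each call held in all 6 fits that left out 1 library.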

How the data were processed

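RNA sequencing measured gene expression in 6 rat prostate samples, grouped by their titles into 3 control and 3 hormone libraries. Per the labels' protocols, total RNA went through an RNeasy column and a TruSeq kit to give paired-end libraries. TopHat, Bowtie2 and HTSeq are named, without versions, in the submitters' processing notes. Build, annotation, strand setting and the handling of multi-mapping reads were not given in the sources used here. Values deposited by the authors were raw counts per gene and FPKM. FPKM equalled the count over a gene length and the library total within 0.00505% for 12088 genes with at least 20 counts in each library. The table held 0 columns of other samples.

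Counts were tested with edgeR 4.0.16 (R 4.3.3). The filter (filterByExpr, minimum count 10, minimum total 15) left 14003 genes, which held at least 99.8% of each library's counts. Libraries were scaled with TMM and compared by the two-sided quasi-likelihood F-test, with Benjamini-Hochberg adjustment over all genes tested and a call at an adjusted p under 0.05. SE is the log2 fold change over the square root of F, and 95% intervals are t intervals with the total degrees of freedom of that test. Shares were compared by exact permutation over the 6 libraries, with a smallest possible p of 0.1. The floor of 3 counts covers counting error only. Libraries of 1 group differed beyond sampling noise (chi-square per gene at least 22.2), so none was counted as a duplicate. The fit was tested on simulated data. Alternatives were DESeq2 1.42.0, limma 3.58.1 on log2 FPKM with added constants, other filters and scalings, a replicate block, and each library left out.

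Members and lists were chosen with earlier results of these data known. The naming rule takes all 8 members, called genes and the 3 highest by FPKM of each secretory list, called markers, and the 3 genes most correlated with each member. Neighbouring genes, Fcgbpl1, Mtf1, Tgm1, Tgm2 and Lcn2 were named after their values were seen.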

Additional observations from a re-analysis of the deposited data

How the results depend on the processing

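With 14003 genes tested, 334 were called higher and 124 lower. DESeq2 gave 906 and 618, and genes with a group mean FPKM of at least 5 in at least 1 group gave 184 and 79. Limma gave 207 higher with a constant of 1 and 163 with a constant of 5. Leaving out 1 library gave 51 to 313 higher and 12 to 156 lower, each with fewer samples. The number of members called higher was 0 without control 2 and 1 otherwise, and that of members called lower was 0 except with DESeq2, which called 1 (Msmb). The cause of these shifts was not tested.

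Of the 4 tested members not called, Tgm4, Semg1 and Scgb2a1 changed sign in some fits, as did the neighbour Scgb2a2, and Msmb did not. With 1 library left out, Tgm4 ranged from -0.27 to 0.12, Semg1 from -1.28 to 1.20, Scgb2a1 from -0.21 to 4.60 and Scgb2a2 from -0.16 to 4.63 on the log2 scale. Semg1 had 0.05 with limma at each constant. Sbp kept its direction in all fits and its call in all but the one without control 2. The members' summed share, hormone minus control, ran from -3.43 to 0.00432 percentage points with 1 library left out. The labels do not say whether the numbers in the titles pair the libraries. Deviations of same-numbered libraries correlated at 0.0829, -0.057 and 0.0698, and 2 of 6 libraries correlated best with their own number. With 3 libraries per group, these values cannot decide whether the numbers pair them. The replicate block gave 228 genes higher and 80 lower, a log2 fold change of 0.20 for Semg1, and 4.58 for Sbp (adjusted p = 0.0248), and under it Prdx6 (adjusted p = 0.0664) and Fuca1 were not called.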
